A study of Mus musculus with 12 samples.

Results

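Ifi203, Ifi204, Ifi206, Ifi213, Ifi214 and Mndal are 6 genes of the mouse Ifi200 family, and their UMI counts (unique molecular identifiers, which count captured RNA molecules) were followed in antibody-secreting cells (ASCs) of bone marrow, spleen and thymus. They are 6 of the 32285 genes in the count tables, chosen by their high counts in thymic ASCs in an earlier analysis of the same libraries, so their thymic levels are a description. A barcode was taken as an ASC if it held at least 500 UMIs outside immunoglobulin (Ig) genes and if 1 light-chain V gene held at least 50% of its light-chain V UMIs, since a cell that secretes 1 antibody uses mainly 1 light chain. By this rule 9213 of 39949 filtered barcodes were kept: 1325 and 1769 from bone marrow, 3661 and 1970 from the spleen, and 133 and 355 from the thymus. Here and below, where a tissue has 2 values, the first is from the female and the second from the male library.

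All animals were Prdm1-eYFP mice on a C57BL/6 background, aged 3 months, in which a fluorescent protein reports Prdm1, the gene of a transcription factor that ASCs need. No mice without the reporter and no treatments entered the comparison. For each sex and tissue, cells of 3 mice were pooled, sorted for high CD138 and the Prdm1-eYFP signal and against IgD and CD90.2 with B220 at either level (B220+/-), and made into 1 droplet library that reads the 5' ends of RNA. Each tissue thus had 2 libraries and each sex 3, with no second pool for any sex and tissue. The pools hide the spread between mice, and p-values measure the spread between these libraries only.

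The Ifi200 family, also called the PYHIN family, encodes proteins that mostly combine a pyrin domain, which joins proteins together, with HIN domains, which bind DNA. Many of its genes are induced by interferon, and several members take part in sensing DNA in the cytosol or nucleus or in controlling transcription and cell growth. In the mouse the family lies in 1 cluster and has expanded by gene duplication, so members resemble each other closely.

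The files held 13 rows of the family, the 6 members and Aim2, Ifi202b, Ifi205, Ifi207, Ifi208, Ifi209 and Ifi211. All 13 lay on chromosome 1 within 680.932 kb, from 173350879 to 174031810 in GRCm38 (GENCODE annotation). From low to high coordinates the members were Ifi206 (chr1:173468485-173491041), Ifi214 (chr1:173519717-173535957), Ifi213 (chr1:173566283-173599274), Ifi204 (chr1:173747293-173766943), Mndal (chr1:173849126-173942491) and Ifi203 (chr1:173920407-173942672). All 6 were on the minus strand. The annotated span of Mndal overlapped those of Ifi211 and Ifi203 on the same strand. Of the 90-base stretches in the transcripts of a member, 1.40% for Ifi203, 4.86% for Ifi213, 7.19% for Mndal, 8.28% for Ifi214, 8.99% for Ifi206 and 11.5% for Ifi204 were also found in another family row. How reads matching several rows were counted is not given in the sources used here, so the split of counts between members is uncertain. These shares are over whole transcripts, while the libraries read the 5' ends of RNA. They therefore set no bound on that uncertainty.

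The sequence just upstream of the start sites is shown because the members share an interferon-type motif there. The motif searched was the core of the interferon-stimulated response element (ISRE), GAAANNGAAA, on both strands of the 250 bases before each start in the RefSeq promoter table (GRCm38.p6). Windows were found for 5 of the 6 members. Each of these 5 genes had a match in at least 1 window, against 2.98% of all 32851 windows and 3.46% of 27025 genes. Capitals mark the match, and each sequence runs 5' to 3' on the strand of its gene, which is minus for the members and plus for Ifi208 and Ifi209.
Ifi203, second start, chr1:173942498-173942552: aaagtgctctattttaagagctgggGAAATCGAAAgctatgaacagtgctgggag
Ifi206, chr1:173491329-173491383: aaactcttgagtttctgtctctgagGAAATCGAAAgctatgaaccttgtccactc
Ifi213, chr1:173599316-173599370: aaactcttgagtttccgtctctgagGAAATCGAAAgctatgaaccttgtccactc
Ifi214, chr1:173536007-173536061: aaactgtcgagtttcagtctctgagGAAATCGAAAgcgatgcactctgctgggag
Mndal, first start, 30 bases because annotated UTR overlaps the longer window, chr1:173880204-173880233: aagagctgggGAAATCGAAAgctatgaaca
Ifi208, not a member, chr1:173673582-173673636: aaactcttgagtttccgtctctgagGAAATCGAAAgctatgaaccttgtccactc
Ifi209, not a member, 1 mismatch, chr1:173630755-173630809: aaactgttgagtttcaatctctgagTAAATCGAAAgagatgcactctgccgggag
Ifi211, not a member, chr1:173913054-173913108: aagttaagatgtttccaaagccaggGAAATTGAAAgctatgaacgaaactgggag

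The first base of the match lay 35 bases before the start in Ifi203, 36 in Mndal, 40 in Ifi206, 73 in Ifi213 and 79 in Ifi214. All 5 members carried the same 10 letters, GAAATCGAAA. These letters were singled out after the sequences had been seen. They occurred in the windows of 13 of 27025 genes (0.0481%), of which 7 were family rows (the 5 members, Ifi207 and Ifi208). The Ifi209 window had the closest stretch at a difference of G1T, counted from the first base of the motif. Ifi205 and Ifi211 matched the motif with other middle letters, and Aim2 and Ifi202b had no match. A second Mndal start had a match on the opposite strand, 54 bases before it, and the first Ifi203 start had none. The second Ifi203 start, at 173942492, lies next to the 5' end of the annotated Mndal span, at 173942491 on the same strand. The stretch printed for Ifi203 is thus also just upstream of that Mndal end. The motif TTCNNNGAA of the gamma-activated site was in 7.02% of all windows and in no member window.

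**Figure D1:**
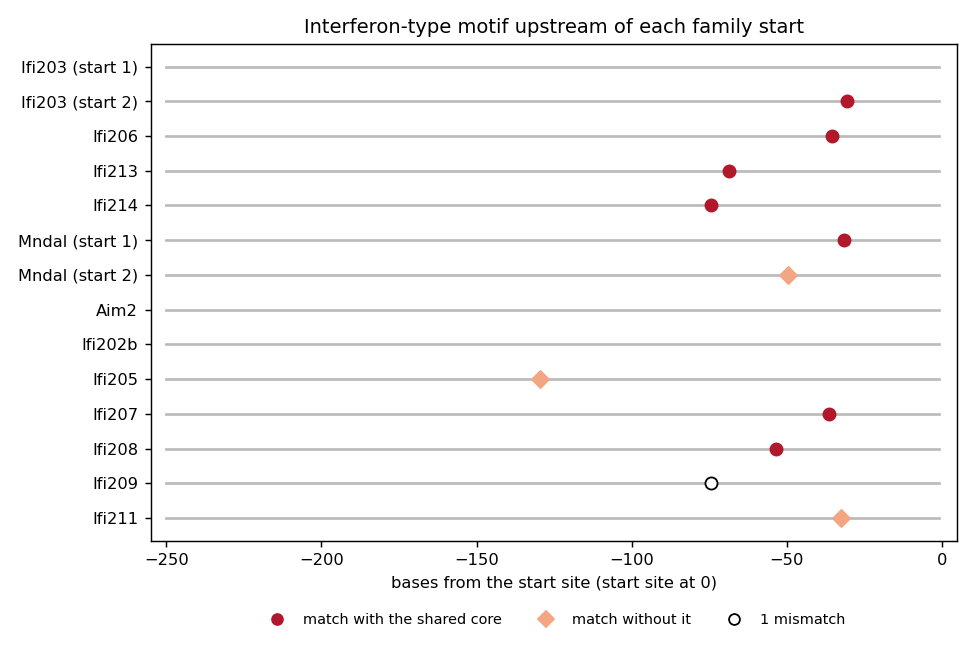
Position of the GAAANNGAAA match in the 250 bases before each family start; the axis gives bases from the start site, filled circles are matches with the letters shared by the 5 members, diamonds are other matches and the open circle is the 1-mismatch stretch of Ifi209. In the members the shared match begins between 35 and 79 bases before the start.

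Whole upstream windows were also alike between pairs of rows. Over aligned columns, Ifi206 and Ifi208 were 99.6% identical, Ifi213 and Ifi208 99.1%, and Ifi206 and Ifi213 98.6%. Ifi214 resembled Ifi209 (94.8%), and Ifi203 resembled Mndal (93.6%). Rows this alike are not independent examples of the motif. A match is a description of letters and was not tested for binding.

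The cells of the rule were checked against ASC markers and held UMIs of all 7 (Sdc1, Xbp1, Prdm1, Irf4, Jchain, Tnfrsf17 and Mzb1) in every library. Together these took 55166 and 78803 CPM (UMIs per 1000000 UMIs outside Ig genes) in thymus and 71267 to 108546 CPM elsewhere. The sum was thus lowest in female thymus, and a library sum does not show that each barcode is an ASC. Female thymus was the shallowest library, with 282801 summed UMIs outside Ig genes and a median of 1738 per cell, and female spleen the deepest, with 21365508 and 4180. Of 10 T cell markers, 5 were detected in female and 8 in male thymus, summing to 74.3 and 28.3 CPM against 7.61 to 12.5 CPM elsewhere, with Cd4 and Ptcra at 0 in both. Neutrophil markers were at 0 in thymus and male spleen and at 407 and 1353 CPM in bone marrow, and macrophage markers took 23.4 to 73.2 CPM. At most 13 barcodes were shared between any pair of libraries, and 5.26% of female and 4.23% of male thymic cells had a barcode that also occurred elsewhere. Free RNA made up an estimated median of 3.78% (female thymus) to 22.2% (female spleen) of a cell's UMIs.

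Levels of members are given as scaled CPM, that is, CPM outside Ig genes after edgeR's TMM scaling of library size. Each member was higher in both thymic libraries than in the other 4, an order that the choice by high thymic counts favours. How many of all genes tested had this order was not counted, so it is a description only. Bone marrow and spleen values overlapped for every member, and the share of all genes doing so was not counted either. Since fewer cells using a gene and less RNA per cell look the same in a sum, shares of cells are given further on.

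Ifi206 was the member that differed most between thymus and the rest. It was at 5.59 and 3.49 scaled CPM in bone marrow, 3.69 and 2.57 in the spleen, and 106 and 74.3 in thymus. These values rest on 29, 32, 64, 22, 35 and 102 UMIs in the same order. The thymic libraries stood far above the other 4, which lay close together. Unscaled exact 95% Poisson intervals were 86.2 to 172 CPM in female and 67.2 to 100.1 CPM in male thymus, and the highest upper bound elsewhere was 7.25 CPM. The log2 fold change was 4.33 (SE 0.32) for thymus versus bone marrow and 4.85 (SE 0.32) for thymus versus spleen, or 20.1-fold and 28.9-fold. Over 12 alternative choices of cells, counts, scaling or model it ranged from 4.25 to 5.02 against bone marrow and from 4.14 to 5.80 against spleen.

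Ifi214, another member of the same gene block, was at 8.10 and 7.19 scaled CPM in bone marrow, 7.61 and 7.94 in the spleen, and 33.3 and 32.1 in thymus. Both thymic libraries were high and nearly equal, and the other 4 were close to each other. The log2 fold change was 2.10 (SE 0.35) against bone marrow and 2.07 (SE 0.34) against spleen. Over the same 12 alternatives it ranged from 2.08 to 3.04 and from 2.03 to 2.51.

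Ifi213 was at 36.3 and 40.2 scaled CPM in bone marrow, 36.6 and 23.0 in the spleen, and 124 and 91.8 in thymus. Its male spleen library was the lowest, and the thymic libraries stood apart at the top. Its log2 fold change was 1.45 (SE 0.29) against bone marrow and 1.85 (SE 0.30) against spleen.

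Ifi204, the mouse p204 protein gene, known for roles in DNA sensing and cell growth control, had few UMIs: 8 in each bone marrow library, 44 and 11 in the spleen, 4 and 12 in thymus. In scaled CPM it was at 1.54 and 0.872 in bone marrow, 2.54 and 1.29 in the spleen, and 12.1 and 8.74 in thymus. The thymic values were the highest although they came from the fewest cells. The unscaled interval of female thymus, 3.85 to 36.2 CPM, shows how loosely 4 UMIs fix a level. Its log2 fold change was 3.19 (SE 0.65) against bone marrow and 2.53 (SE 0.61) against spleen.

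Ifi203 and Mndal carried most UMIs of the group and differed least. Ifi203, with 9 annotated transcripts, was at 90.1 and 72.1 scaled CPM in bone marrow, 87.2 and 73.7 in the spleen, and 179 and 131 in thymus. Mndal, named for its likeness to the human myeloid nuclear differentiation antigen, was at 189 and 138 in bone marrow, 150.0 and 144 in the spleen, and 312 and 256 in thymus. For both genes the thymic values were above the rest, an order that the choice of members favours. The log2 fold change against bone marrow was 0.92 (SE 0.30) for Ifi203 and 0.81 (SE 0.33) for Mndal. Against spleen it was 0.93 (SE 0.30) and 0.94 (SE 0.33).

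**Figure D2:**
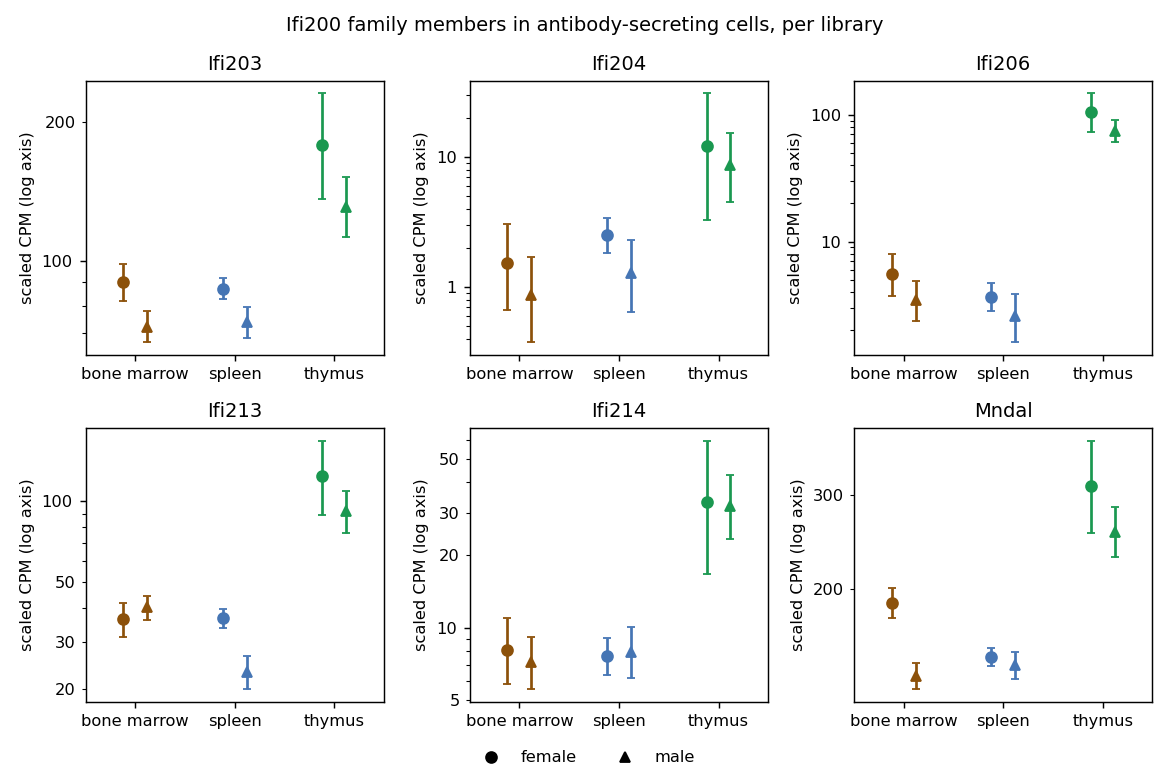
Scaled CPM (log axis) of each member in each library, with exact 95% Poisson intervals for counting error; circles are female and triangles male pools of 3 mice. In all 6 panels both thymic points lie above the other 4, most of all for Ifi206 (106 and 74.3 against 2.57 to 5.59). The members were chosen for high thymic counts, and the share of all genes with this order was not counted.

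By edgeR's quasi-likelihood test with Benjamini-Hochberg adjustment over 11268 genes, 4 of 6 members (Ifi204, Ifi206, Ifi213 and Ifi214) passed 0.05 for thymus versus bone marrow, where 0.719% of all genes did and 0.497% did as higher. For thymus versus spleen 3 of 6 (Ifi206, Ifi213 and Ifi214) passed, with backgrounds of 0.559% and 0.453%. Without the female or without the male bone marrow library only Ifi206 passed against bone marrow (1 of 6), the lone library left being assumed to vary like the others. Without male thymus 3 passed, Ifi204 being lost. With the light-chain limit at 80%, with free RNA subtracted, with 1 factor in the model or with thinned cells, Ifi206 and Ifi214 passed (2 of 6, or 2 of 5 thinned). Without either spleen library, or without cells holding other cell type markers, 5 passed, Ifi203 being added. Against spleen, Ifi206 alone passed with free RNA subtracted, Ifi206 and Ifi214 passed at 80%, and the count was 3 to 5 under the others. The choice of members used these contrasts, so the counts are no evidence about the group. The median log2 fold change of the 6 members was 1.77 against bone marrow and 1.96 against spleen, and that of all genes tested was -0.02 and -0.04. Scaling by library size alone moved the median of all genes to 0.20 in both contrasts.

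The sum of the 6 members, in unscaled CPM, was 298 and 256 in bone marrow, 233 and 270 in the spleen, and 895 and 659 in thymus. Its make-up also differed in thymus. Because each UMI marks 1 molecule at its 5' end, shares of UMIs need no correction for length. Ifi206 made up 1.69% and 1.33% of the member UMIs in bone marrow, 1.28% and 1.02% in the spleen, and 13.8% and 12.5% in thymus. Mndal made up 40.7% and 43.1% in thymus and 52.1% to 57.1% in the other libraries. Cells in which mitochondrial UMIs were 10% or more made up 11.5% and 5.82% in bone marrow, 1.72% and 4.06% in the spleen, and 14.3% and 9.58% in thymus. Without them the members' median log2 fold change in thymus was 1.79 against bone marrow and 1.99 against spleen, against 1.77 and 1.96 with them. The T cell markers, free RNA and depth given above also differ between thymus and the other tissues, and their part in the member levels was not tested beyond the values here. In a further count, every cell with 2 or more UMIs of another cell type's markers was left out. The sums were then 337 and 303 CPM in bone marrow, 273 and 302 in the spleen, and 959 and 817 in thymus. They were thus higher in every library, not in thymus alone. The markers included those of thymic epithelium, of which only Epcam was detected in female spleen, with 4049 UMIs. Cells left out numbered 1338 of 3661 in female spleen and 13 of 133 in female thymus. What the cells left out are was not tested. The members' median log2 fold change was 1.82 against bone marrow and 1.97 against spleen with free RNA subtracted, against 1.77 and 1.96 without the subtraction. With every cell thinned to 500 UMIs, where Ifi204 could not be tested, the median of the other 5 members was 1.39 and 1.76, against 1.45 and 1.85 for the same 5 unthinned.

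The contrast of spleen with bone marrow was tested. It was not the one that chose the members, but libraries of both tissues were the other side of the contrasts that did, so the test is not independent of the choice. None of the 6 members passed (edgeR, adjusted p of 0.05), against 0.39% of all genes, and 0 had an unadjusted p under 0.05, against 4.65% of all genes. DESeq2 called 0 as well. The log2 fold changes of spleen versus bone marrow were -0.01 (SE 0.28) for Ifi203, 0.66 (SE 0.52) for Ifi204, -0.52 (SE 0.33) for Ifi206, -0.40 (SE 0.27) for Ifi213, 0.03 (SE 0.28) for Ifi214 and -0.13 (SE 0.32) for Mndal. Each of these adjusted p-values rounded to 1.0. With standard errors of 0.27 to 0.52 and 2 libraries a tissue, differences of such size were not detectable here, and the result does not show equal levels. The signs of Ifi203, Ifi206, Ifi214 and Mndal depended on the cells, scaling or library left out.

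The sexes were compared over 3 libraries each with tissue in the model. The names of the 6 receptor tables, not used here, give the other sex than their labels, so the labelled sex of the expression libraries was checked on sex-linked genes. Xist, which is transcribed from the inactive X chromosome, was at 828 to 1368 scaled CPM in the libraries labelled female and at 0.763 to 1.46 in those labelled male. The Y-linked Ddx3y was at 0 to 0.0577 and at 61.2 to 78.0. The labels of all 6 expression libraries thus matched these genes. None of the 6 members passed (edgeR, adjusted p of 0.05), against 0.39% of all genes, and DESeq2 called 0. Every member had a negative log2 fold change of male versus female, from -0.04 (Ifi214) to -0.81 (Ifi204), but Ifi214 turned positive with library size scaling (0.15) and Ifi206 and Ifi214 did in a model without tissue. The same change of scaling moved the median of all genes from 0.01 to 0.22. Ifi206 had the 1 unadjusted p under 0.05, with a log2 fold change of -0.56 (SE 0.26), an unadjusted p of 0.0393 and an adjusted p of 0.494 in edgeR, and 9.61% of all genes were under 0.05 unadjusted. In scaled CPM it was lower in male than in female libraries in 3 of 3 tissues, as were Ifi203, Ifi204 and Mndal, while Ifi213 was not in bone marrow and Ifi214 was not in spleen. The share of all genes lower in the male library of every tissue was not counted, so nothing is read from these counts. In unscaled CPM the spleen turned the other way for Ifi203 (70.8 female, 78.7 male) and Mndal (122 female, 154 male). The labels do not say whether 1 pool of mice gave all tissues of a sex. If so, sex and pool cannot be told apart.

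**Figure D3:**
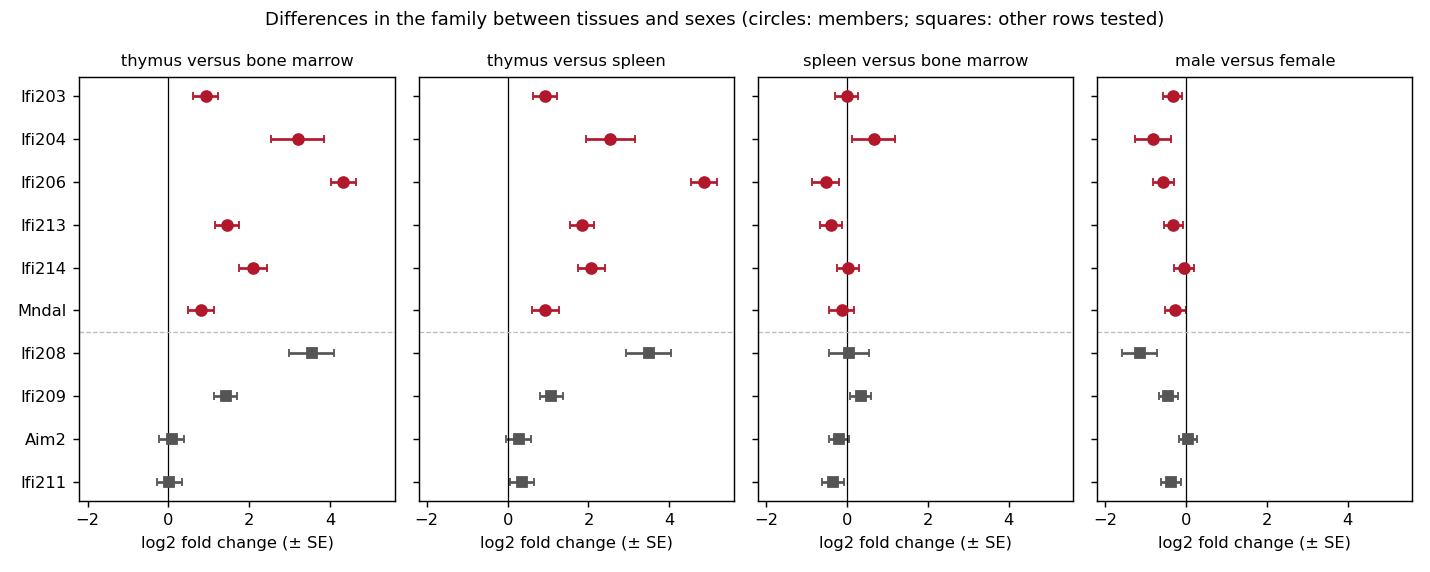
Log2 fold changes with standard errors from 1 edgeR model over the 6 libraries, for the 6 members (circles) and the 4 other family rows that could be tested (squares). Members lie to the right of 0 in both thymic contrasts, and in the spleen and sex contrasts they lie between -0.81 and 0.66.

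The other rows of the family fell into different groups. Ifi208, whose upstream window matches that of Ifi206 almost letter for letter, was at 2.31 and 0.872 scaled CPM in bone marrow, 2.19 and 1.05 in the spleen, and 24.2 and 11.7 in thymus. Its 38 and 9 UMIs in the spleen were 0.99 and 1.19 times the number estimated from free RNA, which is explained further on. This ratio was 3.17 and 1.84 in bone marrow and 46.4 and 16.3 in thymus. The log2 fold change of Ifi208 was 3.54 (SE 0.56, edgeR adjusted p = 0.000612) against bone marrow and 3.49 (SE 0.55, adjusted p = 0.0011) against spleen. Ifi209 was at 56.1 and 39.7 in bone marrow, 69.4 and 51.4 in the spleen, and 142 and 111 in thymus. It passed against bone marrow (log2 fold change 1.42, SE 0.29, edgeR adjusted p = 0.0108) and not against spleen (1.08, SE 0.29, adjusted p = 0.1). Ifi208 kept its call against bone marrow in 15 of 17 alternatives and lost it without male bone marrow and with free RNA subtracted. Its call against spleen was kept in 16 of 17 and lost with 1 factor in the model. Ifi209 was called against spleen in 3 of 18 alternatives. Against bone marrow it kept its call in 13 of 18 and lost it without either bone marrow library, without male thymus, with free RNA subtracted and with 1 factor in the model. Neither row belongs to the chosen group, but both come from the family that was noticed in these libraries.

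Aim2, whose protein senses cytosolic DNA and starts the inflammasome, was at 33.4 and 36.4 scaled CPM in bone marrow, 29.1 and 32.2 in the spleen, and 45.4 and 33.5 in thymus. Ifi211 was at 92.6 and 61.5 in bone marrow, 70.4 and 50.7 in the spleen, and 69.6 and 76.5 in thymus. The groups overlapped for Ifi211, and male thymus lay within the bone marrow values for Aim2. Neither passed in any of the contrasts. Ifi211 shared 59.0% of its 90-base stretches with other family rows, so by this measure its counts are the least certain. Ifi202b had 0 UMIs in every library, and Ifi205 and Ifi207 had at most 6 and 9 UMIs in a library. The members with an upstream window and Ifi208 carried the shared motif letters and were higher in both thymic libraries. The choice of members favours this order. Ifi207 also carried the letters but had 0 UMIs in both thymic libraries and at most 9 in a library elsewhere. Ifi209, with 1 mismatch, was higher in both thymic libraries. Ifi211, which has a match with other middle letters, and Aim2, which has none, were not called in either thymic contrast. Ifi203 and Mndal, which carry the shared letters, were not called there either, and Ifi209 was not called against spleen. Whether the motif bears on the levels was not tested.

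Shares of cells were compared after each cell had been thinned to 500 UMIs, since deeper cells show more genes. A UMI of any member was found in 17.0% of the female bone marrow cells (14.997 to 19.1%, exact 95% binomial interval), 12.7% in male bone marrow (11.2 to 14.4%), 13.2% in female spleen (12.1 to 14.4%) and 13.4% in male spleen (11.9 to 14.985%). In thymus it was 31.6% in the female library (23.8 to 40.2%) and 24.8% in the male library (20.4 to 29.6%). Without thinning the shares were 60.2, 61.7, 62.4, 54.1, 63.2 and 68.7% in the same order, at unequal depths. Both thymic libraries lay above the other 4 in the thinned cells. Intervals cover counting error only. With the light-chain limit raised to 80%, the male thymic share was 15.7% (10.3 to 22.4%), and its interval overlapped those of all 4 libraries outside thymus, 14.3% (11.8 to 17.2%) and 9.88% (7.99 to 12.04%) in female and male bone marrow and 10.4% (8.95 to 12.1%) and 10.6% (8.04 to 13.7%) in female and male spleen. The female thymic share was 28.9% (19.5 to 39.9%).

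Ifi206 alone was in 0.0755% of thinned cells in female bone marrow, 0.170% in male bone marrow, 0.191% in female spleen and 0.305% in male spleen. In thymus it was in 6.02% (2.63 to 11.5%) and 3.94% (2.17 to 6.53%). Without thinning it was in 0.964% to 2.04% of cells outside thymus, and in 24 of 133 female and 67 of 355 male thymic cells (18.0% and 18.9%). Unthinned cells that had Ifi206 held on average 1.07 to 1.16 UMIs of it outside thymus and 1.46 and 1.52 in thymus. Both the share of cells and the UMIs per such cell were thus higher in thymus. For Mndal the thinned share was 6.94% to 10.8% outside thymus and 17.3% and 14.1% in thymus. For Ifi203 it was 3.79% to 4.98% outside thymus, 11.3% in female thymus and 4.51% in male thymus, so only the female thymic library stood apart.

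More than 1 member in the same thinned cell was seen in 1.36% and 0.622% of bone marrow cells, 0.819% and 0.761% of those of the spleen, and 11.3% (6.45 to 17.9%) and 5.92% (3.70 to 8.90%) in thymus. With the light-chain limit at 80% the male thymic share was 3.27% (1.07 to 7.46%), which overlapped female bone marrow at 1.04% (0.421 to 2.14%), and the female thymic share was 13.3% (6.81 to 22.5%). Counted over the 15 pairs of members, cells with both genes of a pair numbered 1.43 and 1.15 times the product of the single shares in bone marrow, 1.55 and 1.41 times in the spleen, and 1.97 and 2.08 times in thymus. Without thinning these ratios were 1.30, 1.28, 1.28, 1.43, 1.61 and 1.54. The thinned ratios rest on 11 to 36 pairs seen per library and were not tested. Ifi206 and Mndal met in 4 thinned cells of female thymus, where 1.38 would be met with independent genes, and in 6 of male thymus, where 1.97 would be. Ifi206 and Ifi213 met in 2 and 3, where 0.541 and 0.789 would be. Ifi203 and Mndal met in 2 cells of female thymus, where 2.59 would be met, and in 4 of male thymus, where 2.25 would be, and Ifi203 and Ifi206 met in 1 and 1, where 0.902 and 0.631 would be.

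**Figure D4:**
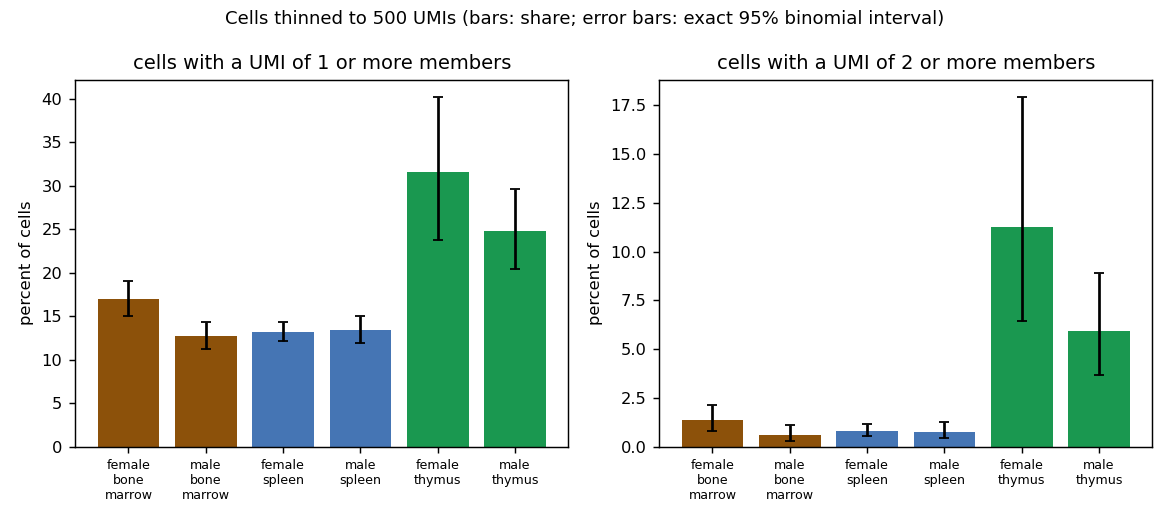
Percent of cells, thinned to 500 UMIs, with a UMI of 1 or more members (left) and of 2 or more members (right), per library, with exact 95% binomial intervals. Both thymic bars are higher than the other 4 in each panel, with 31.6% and 24.8% at left and 11.3% and 5.92% at right; with the light-chain limit at 80%, not plotted, the male thymic values were 15.7% and 3.27% and their intervals overlapped other libraries.

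Free RNA in the droplets was set beside each count. Its profile was taken from barcodes of at most 100 UMIs outside the filtered list, and its share of each cell from light-chain V UMIs other than those of the leading gene. Ifi206 took 34.5 and 18.1 CPM of the free RNA in thymus, against 4.12 to 8.71 CPM in the other libraries. The 64 Ifi206 UMIs in cells of female spleen compare with 44.8 estimated from free RNA (1.43 times), and the 22 in male spleen with 8.54 (2.58 times). In thymus the 35 and 102 UMIs compare with 0.499 and 1.96 (70.1 and 51.9 times). In female spleen the Ifi206 count is thus close to what free RNA would give, and its thymic counts are far above the estimate. Female thymus had the lowest estimated share, 3.78%, yet the barcodes of its free RNA profile held the most UMIs. They held 5784319 over 435221 barcodes, against 2111551 to 3131941 over 468055 to 607351 barcodes elsewhere. The ratio of 70.1 rests on that estimated share, whose error was not tested. Ifi204 was at 1.93 to 5.64 times the estimate outside thymus and at 27.7 and 30.6 times in thymus. The other 4 members were at 3.24 times or more in every library.

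**Figure D5:**
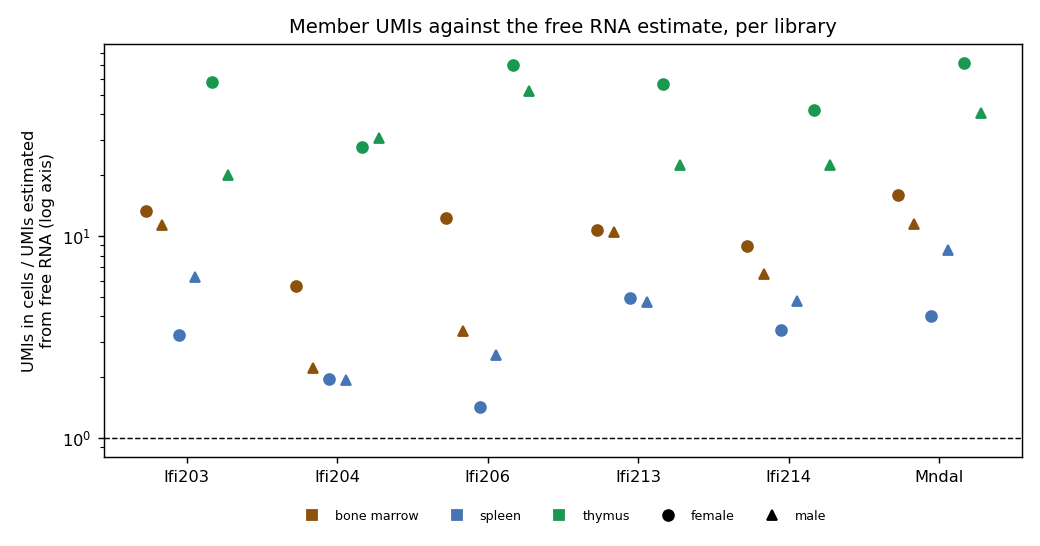
UMIs of each member in cells divided by the UMIs estimated from free RNA (log axis), per library; colours mark tissues, circles female and triangles male pools. The dashed line at 1 is the level free RNA alone would give, and Ifi206 in female spleen (1.43) is the point nearest to it.

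The rule's limits were checked by the members' summed CPM in cells on either side, as a description. Cells whose leading light-chain V gene held 50 to 60% were at 414 and 421 CPM in bone marrow, 356 and 357 in the spleen, and 1189 and 1187 in thymus. Cells at 40 to 50%, just outside, were at 461 and 382, 355 and 354, and 1258 and 945. Both sides of the limit were similar, and both were higher than the whole set of cells in each library. At the limit of 500 UMIs the counts were too few to read: in male thymus, cells within 100 UMIs above it held 6 member UMIs and those within 100 below it held 3.

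Within libraries the members were also set against antibody class and cell cycle. In cells with mainly IgM constant-region UMIs, the summed members were at 243 and 277 CPM in the 2 spleen libraries, and in IgG cells at 194 and 205 CPM, with intervals of 182 to 208 and 177 to 236 CPM that lay below those of IgM (235 to 251 and 265 to 290). The IgM and IgG intervals of the sum overlapped in the bone marrow and thymic libraries. Single members could go opposite ways. In female bone marrow, Mndal was at 173 CPM (161 to 185) in IgM and 109 (82.8 to 139.7) in IgG cells. Ifi213 was at 31.9 CPM (27.1 to 37.4) in IgM and 59.7 (41.1 to 83.8) in IgG cells there. In the sum, thymic IgM cells were at 963 and 662 CPM, IgA cells at 717 and 542, and IgG cells at 805 and 695. Each class was thus above every spleen and bone marrow value of its own class. For the cell cycle, cells were grouped by whether a UMI of Mki67, Top2a, Ube2c, Birc5 or Cdk1 was found after thinning. The CPM of each group came from unthinned counts, so the other cells can still hold such a UMI. Cells with a cycling-gene UMI after thinning had a lower summed CPM of the members than the other cells in 6 of 6 libraries. How many of all genes were lower in such cells was not counted, so nothing is read from this count. The values were 236 against 306 CPM in female bone marrow, 246 against 258 in male bone marrow, 189 against 241 and 233 against 276 in the spleen, and 532 against 985 and 472 against 690 in thymus. The intervals of these 2 groups of cells overlapped in male bone marrow (216 to 279 and 247 to 269 CPM) and in male spleen (205 to 264 and 263 to 288 CPM).

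Genes that sense and pass on interferon were read from lists that were also made with earlier results known. Among genes of the type I interferon receptor and its signalling, Irf9 and Usp18 were called higher in thymus than in bone marrow, and Usp18 was also called higher than in spleen. Usp18, which dampens signalling at the receptor, was at 1.93 and 1.42 scaled CPM in bone marrow, 8.02 and 2.57 in the spleen, and 39.4 and 43.0 in thymus. The receptor subunit genes Ifnar1 and Ifnar2 and the kinase genes Jak1 and Tyk2 were not called, with log2 fold changes of 0.36, -0.18, -0.03 and -0.10 against bone marrow.

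Of 12 tested genes of nucleic acid sensing, 1 was called higher in thymus in each contrast, Irf7, a transcription factor that drives interferon genes and is itself interferon-induced. It was at 22.6 and 16.8 scaled CPM in bone marrow, 39.3 and 19.0 in the spleen, and 93.9 and 131 in thymus. Of all genes tested, 0.497% were called higher in thymus than in bone marrow and 0.453% higher than in spleen. The list's median log2 fold changes were 0.26 and 0.17. Samhd1, Pycard, Tmem173 (the gene of STING) and Ddx58 (the gene of RIG-I), its 4 genes of highest mean level, were not called. Their log2 fold changes against bone marrow were 0.58, -0.30, -0.21 and 0.28.

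Of 8 tested interferon-induced genes outside the family, 5 (Isg15, Oasl2, Rtp4, Ifi27l2a and Xaf1) were called higher in thymus than in bone marrow and 4 (all of these but Isg15) higher than in spleen. The shares of all genes tested that were called higher in thymus were 0.497% and 0.453% in these contrasts. The list's medians were 2.95 and 1.84. Rtp4, which encodes a chaperone for receptor transport, was at 0.579 and 0.327 scaled CPM in bone marrow, 1.38 and 0.467 in the spleen, and 21.2 and 16.0 in thymus. Ifi27l2a was at 220 and 79.4, 814 and 161, and 1538 and 1919. Isg15, a ubiquitin-like modifier, was at 51.3 and 60.4, 221 and 60.6, and 136 and 293, so female spleen lay between the thymic libraries. Bst2, which encodes tetherin, a membrane protein that holds budding virus at the cell surface, was at 251 and 199 in bone marrow, 420 and 168 in the spleen, and 203 and 364 in thymus. The groups overlapped, and it was not called (log2 fold changes of 0.42, SE 0.41, edgeR adjusted p = 0.808, against bone marrow and 0.09, SE 0.42, adjusted p = 0.975, against spleen). In the lists of nucleic acid sensing and of interferon-induced genes, 0 genes passed for spleen versus bone marrow or male versus female (edgeR). At an unadjusted p under 0.05 there were 0 and 3 genes in the first contrast, where 4.65% of all genes were, and 1 and 3 in the second, where 9.61% were. Usp18 and Rtp4 stayed called in every alternative in which they were tested. Without male bone marrow, Irf7, Irf9, Isg15, Oasl2, Ifi27l2a and Xaf1 all lost their calls against bone marrow, where Irf9 was called in 10 of 18 alternatives and Isg15 in 11. Without male thymus, Irf7, Oasl2, Ifi27l2a and Xaf1 lost theirs against spleen, where Ifi27l2a was called in 9 of 18. With free RNA subtracted, Irf9, Isg15, Oasl2 and Ifi27l2a were not called against bone marrow, nor Irf7, Oasl2, Ifi27l2a and Xaf1 against spleen. With 1 factor in the model, Irf9, Isg15 and Oasl2 were not called against bone marrow, nor Oasl2, Ifi27l2a and Xaf1 against spleen.

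In thinned single cells, UMIs were counted over all 11 interferon-induced list genes present in the data, not only the 8 tested. Of those tested, Ifi27l2a and Bst2 had the highest mean levels, and Bst2 was not called. Shares of cells with such a UMI were compared between cells with and without a member, and intervals overlapped in all 6 libraries. The shares with and without a member were 15.1 and 14.5% in female bone marrow, 10.7 and 10.7% in male bone marrow, 32.0 and 32.0% in female spleen, and 16.3 and 12.6% in male spleen. In female thymus they were 38.1% (23.6 to 54.4%) and 46.2% (35.6 to 56.9%), and in male thymus 33.0% (23.3 to 43.8%) and 34.5% (28.8 to 40.5%). For Ifi206 alone, 3 of 7 female and 3 of 6 male spleen cells with it had such a UMI, against 32.0% and 13.0% without it. In thymus these were 4 of 8 and 7 of 14 cells, against 43.2% and 33.4%. In bone marrow they were 0 of 1 and 0 of 3 cells, against 14.7% and 10.7%. With so few cells the intervals were wide and overlapped in all 6 libraries. A difference between cells with and without a member, or with and without Ifi206, was thus not detectable at 500 UMIs a cell.

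The genes whose level over the 6 libraries was most like the summed members were named by Pearson's r of log2(scaled CPM + 1), as a description over 6 points that share the same tissue order. Outside the family these were Armcx6 (r = 0.996), B4galnt1, Lpgat1, Wdr43, Gm48161, Cmpk2, Acat3, Wdr70, Cdc42ep4 and Samd9l (r = 0.985). Of these, Cmpk2 and Samd9l are known interferon-induced genes. Samd9l was at 7.14 and 4.36 scaled CPM in bone marrow, 3.23 and 3.74 in the spleen, and 33.3 and 22.6 in thymus. Lpgat1 was at 34.1 and 31.9, 32.3 and 30.4, and 42.4 and 40.8, so a like order came with a much smaller difference. In the family, r to the summed members was 0.994 for Ifi208, 0.946 for Ifi209, 0.68 for Aim2 and 0.367 for Ifi211.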

How the data were processed

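Per the labels' protocols, sorted cells went through 10x Genomics 5' v1.1 chemistry, with 1 well per sex and organ. The authors deposited raw UMI counts per gene and barcode, with no normalization, and per the file headers the filtered matrices came from Cell Ranger 6.0.2 and the unfiltered ones from Cell Ranger 4. The submitters' processing notes name mm10 and GRCm38. Filtered and unfiltered values were equal for shared barcodes, as checked on the files. The receptor (VDJ) libraries, 6 in number, were not used here. The names of their tables give the other sex than the labels, and sexes here follow the labels of the expression libraries, which were checked on sex-linked genes.

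The members, the gene lists and the rule for cells were chosen with earlier results of these data known. Named genes were all members, family rows with 10 or more UMIs, list genes that were called or the 4 highest by mean level, and the 10 most alike by r. Of the interferon signalling list, 1 gene is not reported here, and no counts over that list are given. The 395 genes starting with Igh, Igk or Igl were left out of depths and tests. No doublet caller was run. The light-chain limit removes barcodes with mixed light chains, and other doublets remain.

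Counts were summed per library and tested with edgeR 4.0.16 (R 4.3.3; quasi-likelihood F-test, filterByExpr, TMM, Benjamini-Hochberg at 0.05) in 1 additive model of sex and tissue, with 2 residual degrees of freedom. Libraries were treated as independent, and the biological coefficient of variation was 0.20. DESeq2 1.42.0 was an alternative. The test code was checked on simulated counts. Subsets of cells are in unscaled CPM. Poisson and binomial intervals are exact (Clopper-Pearson for shares) at 95% and cover counting error only. Positions and transcripts are from GENCODE (GRCm38), and upstream sequences are from RefSeq GRCm38.p6. Antibody class needed 10 constant-region UMIs with at least 50% of 1 class.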

Additional observations from a re-analysis of the deposited data

Results flagged for a closer look

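Barcodes outside the rule (at least 500 UMIs, leading light-chain V gene under 50%) gave signal in data that the comparisons do not use. Their summed CPM of the 6 members was 934.926 in female thymus (exact 95% Poisson interval 847 to 1029) and 999.653 in male thymus (919 to 1085). The same barcodes were at 362 and 394 CPM in bone marrow and at 365 and 348 in the spleen (female, then male). The cells of the rule were at 895 and 659 CPM in thymus. Ifi206 alone was at 107 and 78.5 CPM in the thymic barcodes outside the rule, and at 124 and 82.4 CPM in thymic cells of the rule. In bone marrow and spleen it was at 4.12 to 6.11 CPM in the barcodes outside the rule. What these barcodes hold was not tested.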

How the results depend on the processing

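In 12 alternatives (3 of them, the mitochondrial limit, library size scaling and leaving out shared barcodes, chosen after seeing the data) and with each library left out, 0 members were called for spleen versus bone marrow or male versus female, and every thymic log2 fold change of a member stayed positive. The number of members called against bone marrow (4) was 1 without either bone marrow library and 1 to 5 in all, and against spleen (3) it was 1 with free RNA subtracted and 1 to 5 in all, with Ifi206 called each time. Ifi204 could not be tested in thinned cells.

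Genes called for thymus versus bone marrow, 81 in the main test, were 127 with no filter on low counts, 48 with the light-chain limit at 80%, 47 thinned, 25 with free RNA subtracted, 41 with 1 factor in the model and 18 to 351 with a library left out. For thymus versus spleen (63) these were 127, 38, 107, 19, 21 and 32 to 933, and 143 without cells with other cell type markers. For spleen versus bone marrow (44) they were 100, 14, 12, 14, 16 and 12 to 168, and 7 by DESeq2 and 26 with library size scaling. For male versus female (44) they were 101, 20, 6 with free RNA subtracted, 6 with 1 factor and 10 to 210, and 9 by DESeq2, 156 without marker cells and 25 with library size scaling.

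The members' median log2 fold change against bone marrow was 1.96 without marker cells, 1.39 thinned (5 members, which were at 1.45 unthinned), 2.02 with library size scaling and 1.65 to 1.93 with a library left out. Against spleen it was 1.92 with no filter, 2.11 at 80%, 2.12 without marker cells, 1.76 thinned (the same 5, at 1.85 unthinned), 2.23 with library size scaling and 1.85 to 2.07 with a library left out.

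Signs turned for spleen versus bone marrow in Ifi203 (0.0074 DESeq2, 0.0073 RLE scaling, 0.014 no filter, 0.016 at 80%, 0.16 thinned, 0.0023 under 10% mitochondrial UMIs, -0.071 to 0.059 with a library left out), Ifi206 (0.88 thinned), Ifi214 (-0.16 at 80%, -0.065 to 0.13 with a library left out) and Mndal (-0.29 to 0.031 with a library left out). For male versus female they turned in Ifi206 (0.67 with 1 factor) and Ifi214 (0.38 with 1 factor, 0.15 with library size scaling). The cause was not tested.

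Shares of cells with any member were 60.2, 61.7, 62.4, 54.1, 63.2 and 68.7% unthinned (female and male bone marrow, spleen, thymus). At 80% they were 14.3, 9.88, 10.4 and 10.6% outside thymus and 15.7% in male thymus, and without marker cells 14.5% in female spleen. Shares with 2 or more members were 20.2, 23.2, 22.3, 17.3, 33.8 and 37.7% unthinned, and at 80% 0.389% in female spleen, 0 of 489 cells in male spleen (up to 0.752%) and 3.27% in male thymus. The main model already compares tissues within each sex, and the fit with 1 factor leaves that term out; the labels give no replicate numbers for any other pairing.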

Other observations

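Single cells with many UMIs of 1 member were seen outside thymus as well: the highest count in a cell was 24 for Ifi213 and 13 for Ifi203, both in male bone marrow, against 6 and 9 in thymus, where cells are shallower.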
